A study of Mus musculus with 7 samples.

Results

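Synaptic vesicle and SNARE genes were examined in retinas of mice that received angiotensin II (Ang II), a pressor peptide hormone, or saline. The set was taken from the gene table by symbol and biotype: protein-coding genes for synaptotagmins, synapsins, SNAP proteins, syntaxins other than Stx3, VAMP proteins, synaptophysins, RAB3 GTPases, RIM and UNC13 proteins, complexins, syntaxin-binding proteins, SV2 proteins, and the disassembly factors Nsf, Napa and Napb. These names gave 73 of the 54532 genes in the table. Poly-A selected RNA was sequenced from 4 retina libraries of the Ang II group and 3 of the saline group, all of day 28. The series text calls the mice ApoE-/-, whereas each sample is labelled WT, and the labels give no strain, age, sex, dose or number of animals per library. The p-values below therefore measure the spread between these libraries, which may be technical. Libraries held 14655431 to 17563493 counts, and the members took 1.23% to 1.34% of them in the Ang II group and 1.27% to 1.30% in the saline group.

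Synaptic vesicles carry neurotransmitter to the presynaptic membrane and fuse there when calcium enters. Fusion is driven by SNARE proteins, in which VAMP on the vesicle zips together with syntaxin and SNAP proteins on the target membrane, while synaptotagmins sense calcium, and complexins, UNC13 and syntaxin-binding proteins set when the bundle may close. In the retina, photoreceptors and bipolar cells release glutamate tonically at ribbon synapses, and amacrine cells use conventional synapses. Synapsins and complexins 1 and 2 belong to the conventional synapses, and complexins 3 and 4 are known from ribbon synapses.

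No member was called different between the groups. With edgeR's quasi-likelihood test, 0 of the 70 members that passed the filter on low counts had an adjusted p under 0.05, and 0 of all 17078 tested genes did (0%). DESeq2 called 0 of 71 members (0.2% of all its tested genes), and limma-voom with quality weights called 0 of 70 (0.831%), a count over all genes that depends on how limma-voom weights the libraries (142 genes by default, 10 with weights estimated by REML). At an unadjusted p under 0.05, edgeR found 2 members, which is 2.86% of them against 4.62% of all tested genes. Of these, 1 was higher in the Ang II group (Sypl, where 2.9% of all genes were) and 1 lower (Rab3a, where 1.72% were). That count was 1 when Ang II replicate 2, Ang II replicate 3 or saline replicate 1 was left out (3.22% to 3.78% of all genes). It was 4 (5.71%) when saline replicate 3 was left out, against 7.63% of all genes, and 7 (10%) when Ang II replicate 4 was, against 6.77%. With limma-voom it was 11 (15.7%), near the 15.4% of all genes. The direction of these few genes was not stable either. Under library size scaling 3 were higher and 0 lower (4.29%, all genes 5.06%). Without saline replicate 2, 0 were higher and 2 lower (2.82%, all genes 5.17%). Counts this small give no direction for the members as a set. The median log2 fold change of the members, Ang II over saline, was -0.04, and that of all tested genes was -0.0048. Of the members, 45 (64.3%) lay below 0, against 51.1% of all tested genes. With library size alone as the scaling the members' median was 0.0030, that of all genes was 0.04, and 34 members lay below 0. Without Ang II replicate 3, 37 members lay below 0 and their median was -0.0059.

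The intervals bound the size of most differences between these sets of libraries, given a spread between libraries that may be technical. The 95% interval of the log2 fold change lay within 0.5 on either side of 0 (1.41-fold) for 58 of 70 members. It lay within 1 (2-fold) for 68, with the low-count genes Vamp5 and Stx19 as the exceptions. These intervals are per gene and were not adjusted for the number of genes. In whole tissue, fewer cells of a type and less RNA per cell cannot be told apart.

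Levels spanned several orders of magnitude. Relative to the length of the gene model, Cplx4, which encodes a complexin of ribbon synapses, was at 261 ± 27.2 CPM per kilobase (SD, n = 4) in the Ang II group and 265 ± 19.1 (SD, n = 3) in the saline group. Vamp2 (238 ± 12.5 and 256 ± 8.29), Syt1 (155 ± 6.01 and 155 ± 3.76), Rab3a (139 ± 9.09 and 160.2 ± 3.47) and Snap25 (144 ± 8.42 and 139 ± 3.50 CPM per kilobase) were also among the most abundant members. At the other end, 3 members had too few counts to be tested. Stx11, a syntaxin gene of immune cells, had 1 to 17 counts per library, Vamp9 had 1 to 9, and Syt8 had 1 to 4 counts in 4 libraries. Syt8 had 0 counts in Ang II replicate 4, saline replicate 2 and saline replicate 3, where the depth of saline replicate 2, the shallowest library, allows at most 0.210 CPM.

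**Figure D1:**
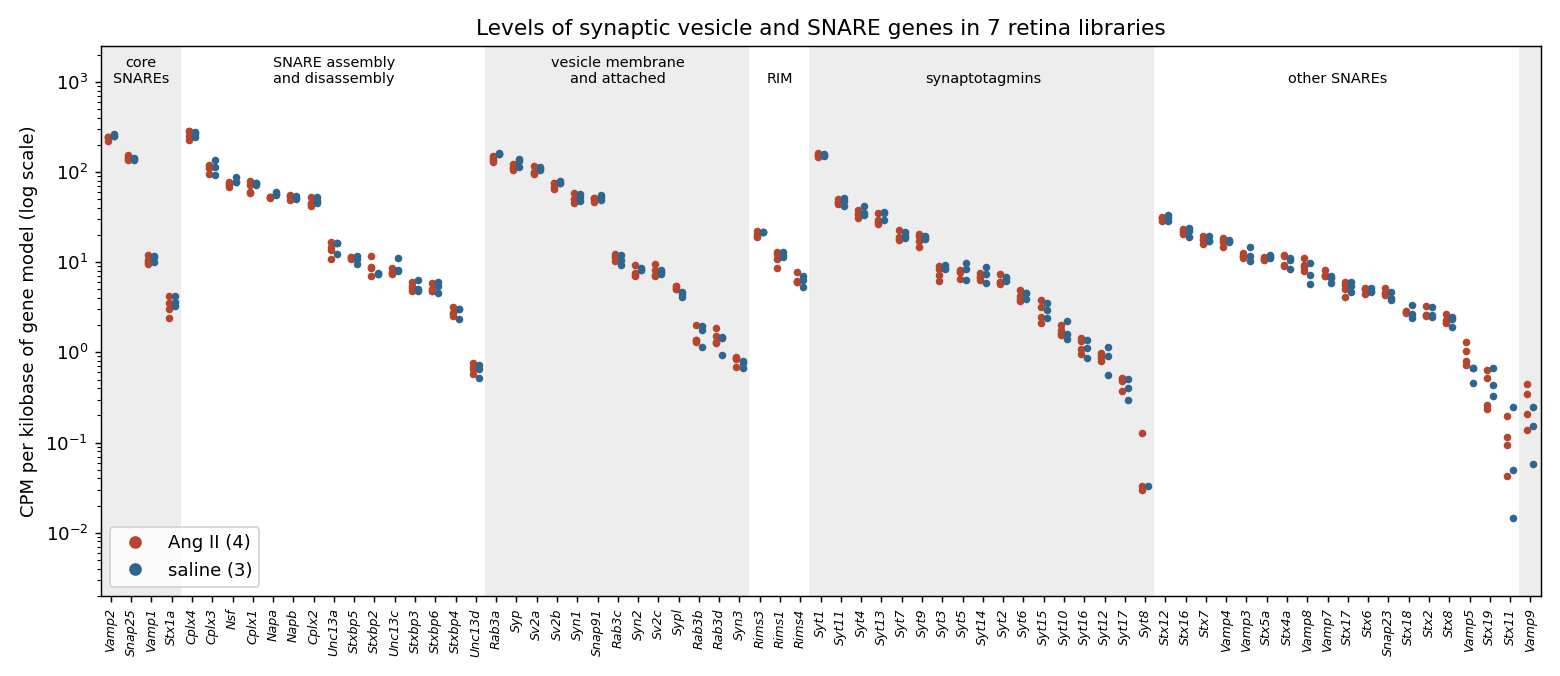
Level of 71 members in CPM per kilobase of gene model (log axis), by role, with 1 point per library (red, 4 Ang II; blue, 3 saline; values of 0 are not drawn). The groups lie on top of each other for nearly every gene, from Cplx4 near 261 to Syt8 at the bottom.

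The 5 SNARE genes of the synaptic vesicle lay close together in the groups. Their log2 fold changes ran from -0.16 (Stx1a) to 0.05 (Snap25), with 4 of 5 below 0 and none called. Vamp2 encodes the main vesicle SNARE, synaptobrevin-2 (ENSMUSG00000020894, chromosome 11, 69088490 to 69092384, mm10). Ang II replicates 1 to 4 gave 932, 921, 835 and 935 CPM, and the saline libraries, in the same order of replicate number here and below, gave 1011, 963 and 951 CPM. All 4 Ang II libraries were below all 3 saline libraries, with Ang II replicate 3 lowest. The log2 fold change was -0.11 ± 0.08 (SE), with an edgeR adjusted p of 0.982, and with library size as the scaling the groups overlapped. Snap25, which encodes the SNARE partner on the plasma membrane, was at 921, 951, 1053 and 993 CPM against 939.7, 972 and 925 CPM. Its highest value was in Ang II replicate 3, where Vamp2 was lowest, and the groups overlapped (0.05 ± 0.08, adjusted p = 0.983 by edgeR).

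The other SNARE genes of this role overlapped between the groups. Stx1a was at 6.41, 8.07, 9.29 and 11.3 CPM against 8.67, 11.1 and 9.60 CPM (log2 fold change -0.16 ± 0.20). Vamp1, the second synaptobrevin gene, was at 103, 97.0, 106 and 121 CPM against 119.5, 103 and 115 CPM (-0.08 ± 0.09). Ang II replicate 4 was the highest library for both genes.

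Among the 16 genes for assembly and disassembly of the SNARE bundle, 11 lay below 0 and none was called (median log2 fold change -0.05). Napa, which encodes the adaptor alpha-SNAP that brings the ATPase NSF to used SNARE bundles (ENSMUSG00000006024, chromosome 7, 16098458 to 16117975), was at 199, 202, 196 and 202 CPM in the Ang II group and at 211, 218 and 226 CPM in the saline group. Every Ang II library was below every saline library (-0.13 ± 0.08, edgeR adjusted p = 0.982), and with library size as the scaling the groups overlapped. Nsf was at 620.5, 611, 566 and 654 CPM against 649, 732 and 647 CPM (-0.14 ± 0.09), where Ang II replicate 4 reached the saline range. Napb, the neuronal counterpart of Napa, had its lowest value, 344 CPM, in Ang II replicate 1, and stood at 380.2 to 387 CPM in the other 3 Ang II libraries, against 355 to 379 CPM in saline (0.03 ± 0.08).

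Stxbp2, which encodes Munc18-2 of secretory and immune cells, was highest in Ang II replicate 3. It was at 36.3, 36.4, 49.3 and 29.4 CPM against 31.8, 31.0 and 30.9 CPM (log2 fold change 0.28 ± 0.15, and 0.13 without Ang II replicate 3).

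The complexins, which clamp and then promote fusion, did not separate the groups. Cplx4 was at 494, 434, 498 and 400.2 CPM against 479, 426 and 488 CPM (log2 fold change -0.02 ± 0.10), and its sign turned under 5 of 13 alternative settings. Cplx3 was at 346, 329, 278 and 357 CPM against 334, 275 and 402 CPM (-0.04 ± 0.12). Saline replicates 2 and 3 held its lowest and highest values, so the spread lay within the saline group. The complexin genes of conventional synapses, Cplx1 (158, 128, 132 and 175 CPM against 165, 155 and 167 CPM, -0.13 ± 0.11) and Cplx2 (221, 209, 220.2 and 263 CPM against 233, 223 and 258 CPM, -0.06 ± 0.10), were highest in Ang II replicate 4. Of the UNC13 priming factors, Unc13a was at 138, 170.4, 186 and 210.5 CPM against 204, 207 and 154 CPM (-0.10 ± 0.14), with a wide spread in both groups. Unc13c was at 98.8 CPM in saline replicate 2 and at 65.4 to 76.3 CPM in the other 6 libraries, and its log2 fold change went from -0.21 ± 0.12 to -0.04 without that library.

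The vesicle membrane and vesicle-attached proteins held both genes with an unadjusted p under 0.05. Of these 13 genes 8 lay below 0 and none was called. Rab3a encodes the GTPase that tethers vesicles to the active zone (ENSMUSG00000031840, chromosome 8, 70754679 to 70758677). The Ang II libraries gave 317, 299.6, 289 and 335 CPM and the saline libraries 353, 351 and 366 CPM. The groups did not overlap, and the saline libraries lay close together (log2 fold change -0.20 ± 0.09, edgeR adjusted p = 0.982). Over 13 alternative settings the value ran from -0.24 to -0.16, and its smallest adjusted p was 0.163, with limma-voom.

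Sypl encodes a broadly expressed relative of synaptophysin, outside neurons too (ENSMUSG00000020570, chromosome 12, 32953891 to 32979860). It was at 45.1, 45.2, 41.9 and 42.2 CPM against 38.7, 34.2 and 36.6 CPM. All Ang II libraries were above all saline libraries, with a small spread in each group (0.26 ± 0.10, edgeR adjusted p = 0.982, range 0.21 to 0.30 over 13 settings). Syp, the gene of synaptophysin itself, an abundant vesicle membrane protein of neurons (ENSMUSG00000031144, chromosome X, 7638471 to 7653256), lay the other way. It was at 544, 572, 596 and 639.6 CPM against 695, 589.6 and 735 CPM (-0.20 ± 0.10, adjusted p = 0.982 by edgeR). Saline replicate 2 lay within the Ang II range and the other saline libraries above it. Of the exonic bases of Syp, 16.8% lie opposite the gene Gm14703, which had 17 to 37 counts per library where Syp had 8411 to 12033.

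The sequences before the starts of this pair are shown as a description. The pair was picked for its ratio, the one among 8 paralogue ratios in which the groups did not overlap. The 8 pairs were chosen after the counts were seen. The exact permutation p of this ratio was 0.229 after Benjamini-Hochberg adjustment over them. The sequences are the 250 bases before the start (RefSeq, GRCm38.p6, plus strand), chrX:7638330-7638579 for Syp and chr12:32953695-32953944 for the first of the starts listed for Sypl. The deposited gene models begin within these windows, at 7638471 for Syp and 32953891 for Sypl. Capitals mark GCGCA and GCGC with 1 base of any kind between them, on either strand, the letters of the site of nuclear respiratory factor 1 (NRF1), a transcription factor of mitochondrial and neuronal genes.
Syp: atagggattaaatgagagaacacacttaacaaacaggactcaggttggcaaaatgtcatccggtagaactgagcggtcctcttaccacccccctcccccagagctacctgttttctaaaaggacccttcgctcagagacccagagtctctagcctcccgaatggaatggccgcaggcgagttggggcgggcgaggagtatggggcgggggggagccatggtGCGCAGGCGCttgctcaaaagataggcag
Sypl: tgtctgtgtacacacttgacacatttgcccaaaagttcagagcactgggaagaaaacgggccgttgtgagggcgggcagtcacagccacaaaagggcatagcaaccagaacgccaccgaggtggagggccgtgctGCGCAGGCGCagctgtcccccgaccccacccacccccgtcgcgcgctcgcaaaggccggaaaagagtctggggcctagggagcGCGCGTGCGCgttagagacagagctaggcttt
The window of Syp held 1 match and that of Sypl 2. The Syp match and the later Sypl match lie past the starts of the deposited gene models. Only the earlier Sypl match lies before its gene model. Over windows of 300 bases (250 before and 50 after a start), the letters were found for 8 of the 57 members with a listed promoter (14%), namely Nsf, Snap23, Stx12, Stx2, Stxbp5, Syp, Sypl and Vamp9, and for 5.19% of the 27025 genes listed. GC content also differed, with a median of 60.8% over the 250 upstream bases of the member promoters and 52.4% over all, so a match to GC-rich letters is a description only. Of 5 other motifs searched on both strands, the GC box (GGGCGG) was found for 78.9% of the members with a listed promoter and 38.2% of all genes, and the cAMP response element (TGACGTCA) for 5.26% and 2.03%. TATAAA was found for 5.26% of the members and 15.7% of all genes. For RE1, the site of the neuronal gene repressor REST, the left part (TTCAGCACC) was found for Syn1 and Unc13a (3.51% against 0.433% of all genes) and the right part (GGACAG and GCC, 1 base apart) for Unc13a alone (0.614% of all genes).

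The other vesicle genes overlapped between the groups. Sv2a, a vesicle glycoprotein gene, was at 447, 462, 436 and 536 CPM against 488, 513 and 523 CPM (-0.11 ± 0.09), and Sv2b, the form known from photoreceptors, was at 632, 640.2, 574 and 546 CPM against 662, 629 and 627 CPM (-0.10 ± 0.09). Ang II replicate 4 was highest for Sv2a and lowest for Sv2b. Syn1, which encodes the synapsin that tethers reserve vesicles, was at 165, 165, 149.6 and 192 CPM against 174, 156 and 188 CPM (-0.04 ± 0.10), and Syn2 was at 50.1, 52.9, 49.2 and 65.2 CPM against 60.0, 57.2 and 58.2 CPM (-0.11 ± 0.11). Syn3 (0.13 ± 0.16) shares 14.1% of its exonic bases with Timp3 on the opposite strand. Timp3 had 2630 to 3597 counts in Ang II libraries and 963 to 2349 in saline libraries, and Syn3 133 to 186 in all, so the Syn3 value is uncertain.

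The 3 RIM genes, whose proteins organise the active zone, ran from -0.12 to 0.05. Rims1 was at 79.3, 91.0, 63.9 and 95.8 CPM against 89.3, 95.8 and 83.3 CPM, and its log2 fold change of -0.12 ± 0.12 became -0.0055 without Ang II replicate 3, the lowest library. Of the 16 tested synaptotagmins, 13 lay below 0 with a median of -0.05, and none was called. Syt1, the fast calcium sensor of release, was at 1289, 1286, 1230.4 and 1353 CPM against 1262, 1324 and 1288 CPM. Its log2 fold change was -0.0021 with a 95% interval of -0.17 to 0.17. The smallest p among synaptotagmins were those of Syt13 (100.3, 112, 106 and 132 CPM against 109.8, 132 and 135 CPM, -0.16 ± 0.11) and Syt3 (22.3, 19.2, 25.9 and 28.1 CPM against 25.9, 29.3 and 27.1 CPM, -0.20 ± 0.14), whose groups overlapped.

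The other members of these roles, chosen for mention after their values were seen, overlapped between the groups. Means are given with their SD (n = 4 and n = 3), followed by the log2 fold change with its SE. Syt11, an abundant synaptotagmin that does not bind calcium, was at 244 ± 13.1 against 247 ± 25.4 CPM (-0.02 ± 0.09), and Syt7, the slow, high-affinity calcium sensor, at 140.1 ± 16.4 against 146 ± 11.9 CPM (-0.06 ± 0.10). Syt2, a fast sensor like Syt1, was at 48.0 ± 6.21 against 49.9 ± 2.66 CPM (-0.06 ± 0.11). Syt4 was at 133.7 ± 11.5 against 144 ± 18.7 CPM (-0.11 ± 0.10), with 14.5% of its exonic bases shared with a gene on the opposite strand. Syt10, Syt12, Syt16 and Syt17 were low, and their 95% intervals reached past 0.5 on the log2 scale. Rims3 was at 162 ± 11.2 against 173 ± 2.06 CPM (-0.09 ± 0.08). Of the vesicle genes, Snap91, which encodes the clathrin assembly protein AP180, was at 455 ± 24.1 against 477 ± 32.5 CPM (-0.07 ± 0.09), and Rab3c, a relative of Rab3a, at 136 ± 9.59 against 127 ± 16.2 CPM (0.10 ± 0.10), on the other side of 0 from Rab3a.

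The 17 tested SNAREs of other membranes, which serve the plasma membrane of other cells, endosomes and the Golgi, were centred on 0 (median 0.0100, 7 below 0). Vamp5, a SNARE gene of muscle and endothelium (ENSMUSG00000073002, chromosome 6, 72368794 to 72380468), was low, at 2.15, 1.96, 3.54 and 2.84 CPM against 1.24, 1.82 and 1.83 CPM. Its groups did not overlap (log2 fold change 0.68 ± 0.32, edgeR adjusted p = 0.982, 95% interval -0.01 to 1.37). The highest value was in Ang II replicate 3, and without that library the log2 fold change was 0.51. The 9 skeletal muscle markers, such as Acta1 and Myh4, summed to 298 CPM in Ang II replicate 3, to 18.5 to 34.1 CPM in the other Ang II libraries and to 22.1 to 38.5 CPM in saline, and none was at 0 in all libraries. Their part in the Vamp5 value of that library was not tested.

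Vamp7, a late endosomal SNARE gene placed on the scaffold GL456233.1, was at 17.8, 17.97, 18.1 and 20.9 CPM against 15.1, 17.7 and 16.8 CPM. The groups did not overlap, by a narrow margin between Ang II replicate 1 and saline replicate 2 (0.18 ± 0.13, edgeR adjusted p = 0.982). Vamp8, an endosomal and secretory SNARE gene, was at 18.4, 21.3, 25.9 and 20.6 CPM against 16.7, 13.2 and 22.9 CPM (0.29 ± 0.18). Saline replicate 3 lay inside the Ang II range, and without it the log2 fold change was 0.53. Snap23, the counterpart of Snap25 in other cell types, was at 19.6, 19.7, 22.4 and 18.7 CPM against 16.5, 19.98 and 17.4 CPM (0.16 ± 0.13). The largest spreads between libraries of 1 group belonged to Stx19 (SD of log2 CPM 0.63 in the Ang II group), Syt12 (0.52 in the saline group) and Rab3b (0.40 in the saline group), all at a few CPM.

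The syntaxins of endosomes and the Golgi lay close to 0 in log2 fold change. Stx7, of late endosomes, was at 80.0 ± 6.78 against 80.6 ± 5.39 CPM (log2 fold change -0.01 ± 0.09), Stx16, of the trans-Golgi network, at 87.2 ± 4.08 against 86.3 ± 9.54 CPM (0.02 ± 0.09), and Stx6 at 52.2 ± 3.23 against 51.9 ± 2.34 CPM (0.01 ± 0.09). Vamp4, a vesicle SNARE gene, was at 77.6 ± 7.61 against 78.6 ± 2.38 CPM (-0.02 ± 0.09). Stx4a, a syntaxin gene of the plasma membrane in many cell types, was at 24.9 ± 3.57 against 23.9 ± 3.43 CPM (0.06 ± 0.14). Stx18 was at 12.9 ± 0.34 against 12.8 ± 2.12 CPM (0.0091 ± 0.15), but 32.3% of its exonic bases are shared with genes on the opposite strand, among them Nsg1 with 1245 to 1705 counts per library, so its level is uncertain. These genes too were chosen after their values were seen.

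**Figure D2:**
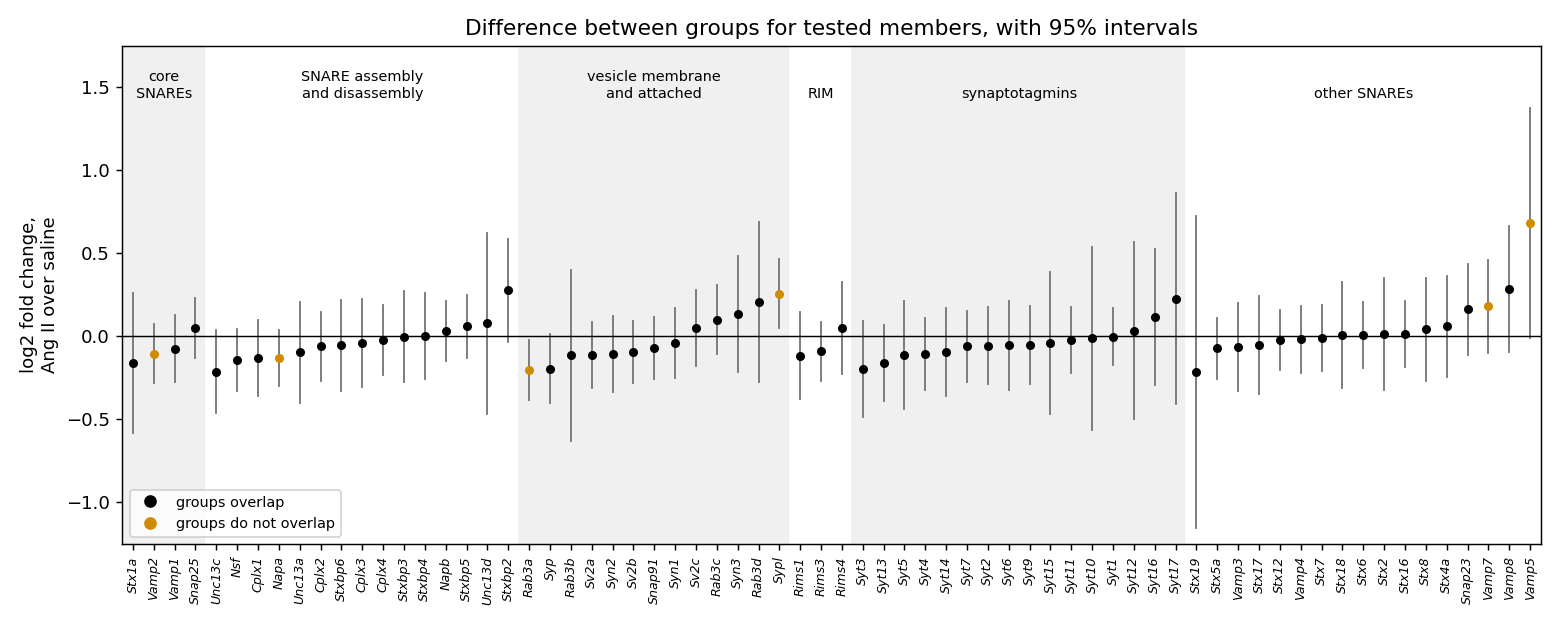
Log2 fold change of Ang II over saline (y axis) for 68 tested members, by role, with 95% intervals from edgeR. Of those drawn, the interval of all but Sypl and Rab3a includes 0, and orange marks the 6 members whose groups did not overlap.

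Groups that did not overlap were thus found for 6 of the 70 tested members (8.57%), against 5.91% of all tested genes. Higher in every Ang II library were Sypl, Vamp5 and Vamp7, 4.29% against 3.18% of all genes, and lower in every one were Rab3a, Napa and Vamp2, 4.29% against 2.73%. With library size as the scaling 4 remained, Rab3a, Sypl, Vamp5 and Vamp7, against 6.31% of all genes. Without Ang II replicate 4 the count was 15, where 13.5% of all genes did not overlap, and without saline replicate 3 it was 10, where 16.9% did not.

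**Figure D3:**
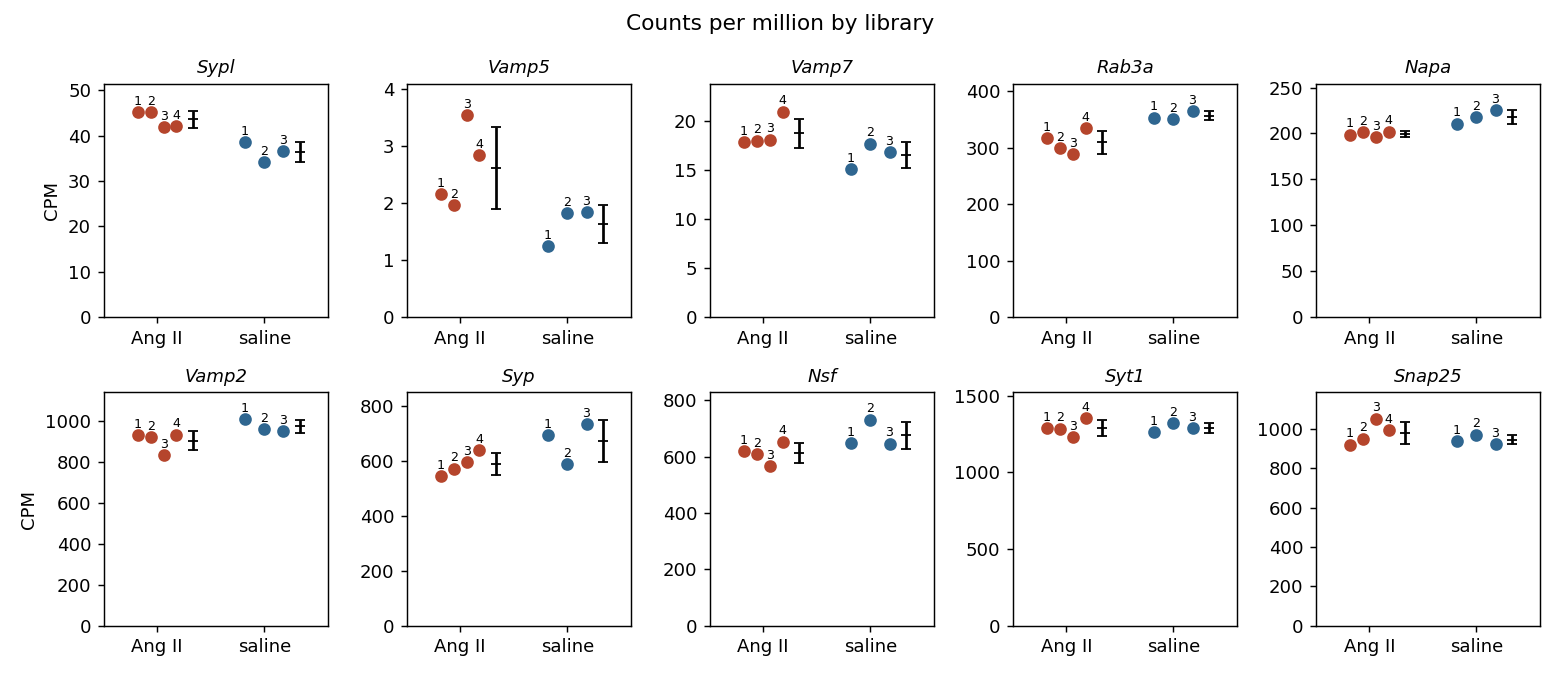
CPM (y axis, from 0) of 10 members in each library, numbered by replicate (red, Ang II; blue, saline), with the mean and SD as a black bar. In the first 6 panels the groups do not overlap, and in Syp, Nsf, Syt1 and Snap25 they do.

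Paralogue ratios within a library do not depend on its scaling. They were compared for 8 pairs, which were chosen after the counts were seen, each with a two-sided exact permutation test (35 ways to place the labels). Sypl was at 0.0518, 0.0493, 0.0439 and 0.0412 of the level of Syp per kilobase in Ang II replicates 1 to 4 and at 0.0347, 0.0362 and 0.0311 in saline replicates 1 to 3. The difference was 0.45 on the log2 scale, with an exact p of 0.0286, which is the least such a test can reach with 4 and 3 libraries, and 0.229 after Benjamini-Hochberg adjustment over the 8 pairs. The smallest adjusted p that a single pair could reach is of the same size, so this design cannot pass 0.05 with 1 pair alone. Napa against Napb had a ratio of 0.995 in the Ang II group and 1.11 in the saline group (exact permutation p = 0.0857, adjusted 0.343), and Ang II replicate 1 lay within the saline range.

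In the other 6 pairs the groups overlapped and exact p ran from 0.171 to 0.971. These ratios describe which form had more RNA per kilobase of gene model in whole retina, and they depend on the deposited gene lengths. Those lengths were 6791 bases for Snap25 and 4293 for Snap23, and 3809 for Vamp2 and 10167 for Vamp1. They were 3299 for Syn1 and 7031 for Syn2, and 1751 for Cplx4 and 2953 for Cplx3. Snap25 exceeded Snap23 by 30.9-fold in the Ang II group and 33.4-fold in the saline group. Vamp2 exceeded Vamp1 by 22.7-fold and 23.1-fold, and Syn1 exceeded Syn2 by 6.60-fold and 6.28-fold. Among complexins, Cplx4 exceeded Cplx3 by 2.35-fold in both groups, from 1.89-fold in Ang II replicate 4 to 3.03-fold in Ang II replicate 3.

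**Figure D4:**
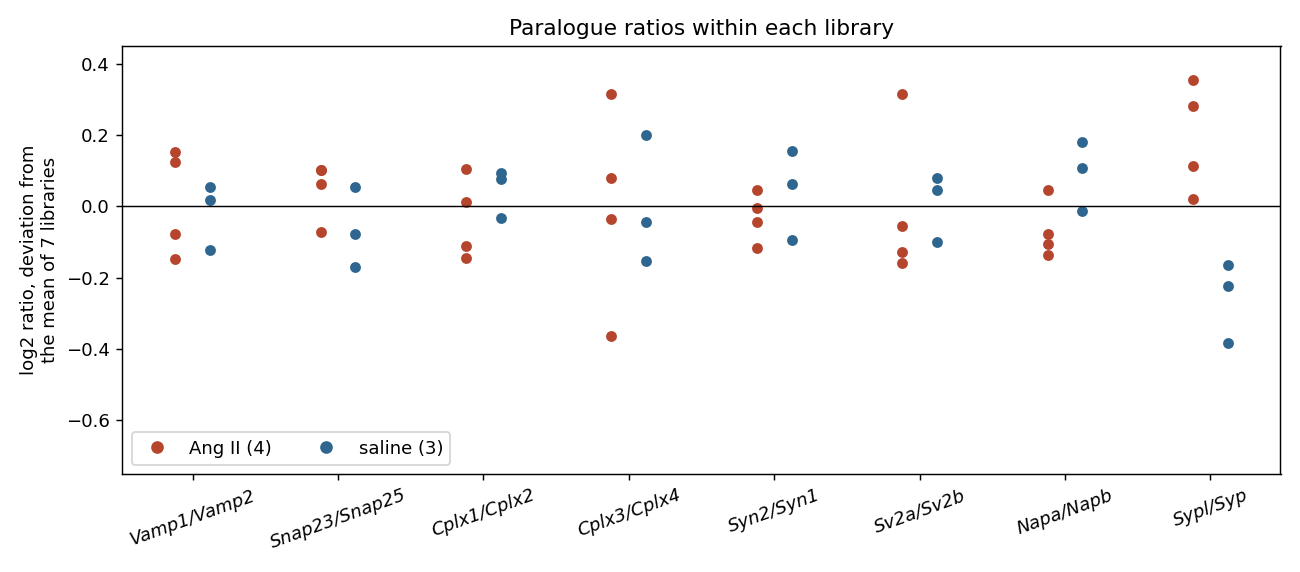
Log2 ratio of 8 paralogue pairs in each library, as the deviation from the mean of the 7 libraries (red, 4 Ang II; blue, 3 saline). The groups are apart for Sypl over Syp (difference 0.45) and overlap for the other 7 pairs, with the widest spread in the Ang II group for Cplx3 over Cplx4.

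In 2 libraries of the Ang II group the median member deviated most, on opposite sides. Ang II replicate 4 held the highest CPM of 28 of the 70 tested members, and Ang II replicate 3 held the lowest of 21. The same counts were not made over all tested genes, so they are not shown to be particular to the members. The median deviation of the members from their mean over 7 libraries was 0.10 on the log2 scale in Ang II replicate 4 and -0.08 in Ang II replicate 3, and it lay between -0.05 and 0.05 in the other 5. By role, the vesicle membrane genes were at 0.16 and -0.15 in these 2 libraries and the synaptotagmins at 0.15 and -0.09, whereas the SNAREs of other membranes were at 0.04 and 0.03. Summed CPM of 5 members of conventional synapses (Stx1a, Syn1, Syn2, Cplx1 and Cplx2) were 600.7, 563.7, 560.1 and 706.2 in the Ang II group and 640.5, 602.2 and 681.0 in the saline group. Those of 3 members known from ribbon synapses (Cplx3, Cplx4 and Sv2b) were 1472, 1404, 1349.5 and 1304 against 1475, 1329.8 and 1517. Ang II replicate 4 was the highest library for the first sum and the lowest for the second, which followed Cplx4 (400.2 CPM there) and Sv2b (546 CPM) but not Cplx3, whose 357 CPM there was the highest of the Ang II group.

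Cell type markers also differed between libraries. The 10 amacrine markers summed to 1314 CPM in Ang II replicate 4 and to 1046 to 1131 CPM in the other Ang II libraries (saline 1133 to 1155), and the 11 ganglion cell markers to 1295 CPM against 967 to 1047 CPM (saline 1029 to 1180.0). The 11 rod markers, all below 0 in log2 fold change as Slc17a7 was, summed to 54109 to 66318 CPM in the Ang II group and 67427 to 72213 in the saline group. The 10 bipolar markers, 9 of them below 0, summed to 1594 to 1771 CPM against 1725 to 1859 CPM. Pigment epithelium markers, 12 of 13 above 0, summed to 1099.8 to 1928 CPM in the Ang II group and to 206, 239 and 1001 CPM in saline replicates 1 to 3. The 8 gliosis genes, all above 0, summed to 379 CPM in Ang II replicate 3, which held the lowest value of 21 members, and to 122 to 153 CPM in the other 6 libraries. The ganglion sum was not low in that library (1033 CPM). No marker in these 6 lists was at 0 in all libraries, and the part of these cells and of gliosis in the values of the members was not tested. Immediate early genes, which mark recent neuronal activity, summed to 213 to 263 CPM in the Ang II group and to 399, 703 and 276 CPM in saline replicates 1 to 3.

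**Figure D5:**
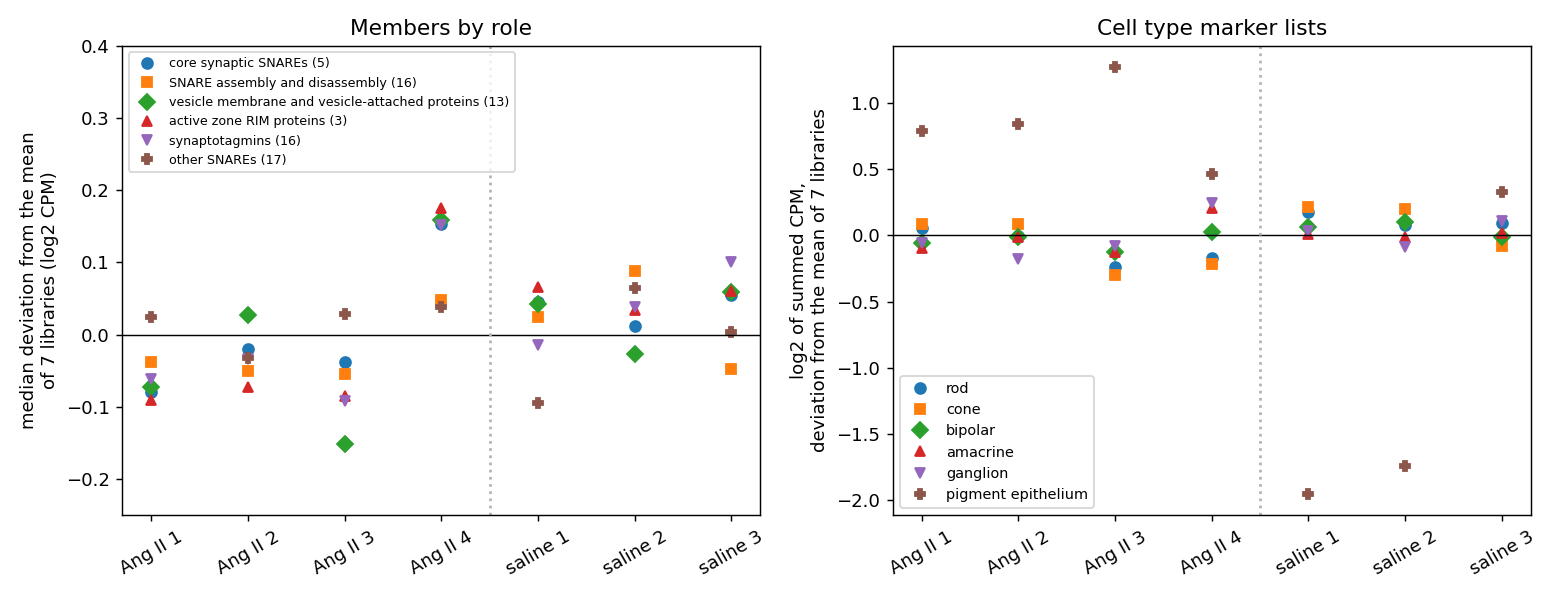
Left, median deviation of the members of each role from their mean over 7 libraries (log2 CPM). Right, log2 of the summed CPM of 6 cell type marker lists, as the deviation from its mean over 7 libraries, where pigment epithelium spans the widest range. On the left, Ang II replicate 4 is the highest library for the synaptotagmins (0.15) and vesicle membrane genes (0.16).

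Other genes of vesicle release and recycling, taken from lists, had 0 calls with edgeR and DESeq2 among 112 tested and 1 with limma-voom (0.893%, near the 0.831% of all genes). Of 21 tested genes for transmitter transporters and the vesicle proton pump, 16 lay below 0 (median -0.07), and Slc17a7, the glutamate transporter gene of photoreceptor and bipolar vesicles, was at 1621, 1581, 1670.3 and 1681 CPM against 2106, 1889 and 1834 CPM (log2 fold change -0.25 ± 0.08). Its adjusted p was 0.982 with edgeR, 0.360 with DESeq2, 0.0205 with limma-voom and 0.204 with limma-voom and REML weights, so the call rests on the weighting. All Ang II libraries lay below all saline libraries, as they did for the pump gene Atp6v1h (-0.15 ± 0.08). Of 32 endocytosis genes, which retrieve vesicle membrane after fusion, 25 lay below 0 (median -0.05). The clathrin adaptor gene Ap2m1 (274 ± 7.52 against 309.7 ± 12.8 CPM, -0.18 ± 0.08, edgeR adjusted p = 0.982) and the clathrin light chain gene Clta (178 ± 7.47 against 198 ± 5.90 CPM, -0.16 ± 0.08) had the smallest p, and neither overlapped between groups.

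The remaining lists were near the median of all genes. Other vesicle proteins had 16 of 24 below 0 (median -0.03), with Svop at -0.15 ± 0.09 and Doc2a at 0.52 ± 0.35. Active zone and ribbon genes had 9 of 20 below 0 (median 0.0025), with the scaffold gene Pclo at 0.17 ± 0.10 and the calcium channel subunit gene Cacnb2 at -0.15 ± 0.10, and Stx3, the syntaxin of ribbon synapses, was at 721 ± 27.5 against 782 ± 71.5 CPM. Golgi and endosome partners of the SNAREs had 6 of 15 below 0 (median 0.01), with Vti1b at -0.18 ± 0.09 and Scfd1 at 0.24 ± 0.12.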

How the data were processed

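The authors deposited one table of whole-number read counts per gene with 1 column per library. HISAT2 2.0.5, featureCounts 1.5.0-p3, CASAVA and the build mm10 are named in the submitters' processing notes. The annotation release, strand setting and rules for reads matching several genes are not given in the sources used here, and per the labels' protocols no step marked the strand. The deposited gene length, the file's own column in bases (another unit than the count), served for levels per kilobase. It covers all exons, so levels of genes with unused exons are understated.

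Columns were matched to samples by description, and 0 columns stayed unmatched. All 7 libraries entered edgeR 4.0.16 (R 4.3.3): filterByExpr by group, TMM scaling, robust quasi-likelihood test, two-sided, Benjamini-Hochberg adjustment over all 17078 tested genes, threshold 0.05. CPM were computed from the counts with TMM-scaled library sizes. A prior count of 2 entered the log2 CPM. SEs were derived from the F statistic, and 95% intervals from these with the degrees of freedom of the test. A count of 0 was taken to allow 3 counts, which covers counting error only. DESeq2 1.42.0, limma 3.58.1 (voom with quality weights, gene-by-gene weight estimation), other scalings, no filter, a replicate block and leaving out each library were alternatives. The steps were tested on simulated data. Counts of genes whose groups do not overlap were added after seeing the data. Replicates differed by more than sampling noise (chi-square over degrees of freedom from 9.90 to 21.1), so none was counted as a repeat.

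The members and lists were chosen with earlier results of these data known. Genes named by rule are the 12 members of smallest p, a core set of 21, and those whose groups do not overlap. They also include the 3 of largest spread at a mean of at least 1 CPM, and 2 genes of smallest p per further list. Any other gene was chosen after its values were seen. The values of 2 members, and a ratio that used one of them, are not reported here. Both stay in the fits and in the counts over the set. All 73 members are in GENCODE M21 on the same build, 70 with the same start and end, and 5 share over 10% of their exonic bases with other genes.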

Additional observations from a re-analysis of the deposited data

Results flagged for a closer look

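Among the 4 Ang II libraries, 1 library lay far from the other 3 for 7 of 68 members with a mean of at least 1 CPM, by the gap to the nearest library relative to the range. Chance gives such a flag in about 1 of 20 genes, and genes of 1 library are not independent. The same check was not made over all tested genes, so the count is not shown to be particular to the members. Ang II replicate 3 was low for Vamp2 (835 CPM, the others 921 to 935) and Syn3 (8.41 CPM, the others 10.4 to 10.9). Ang II replicate 4 was high for Rims4, a short RIM gene (38.4 CPM, the others 29.6 to 30.4), Rab3b (7.06 CPM, the others 4.55 to 4.83) and Vamp7 (20.9 CPM, the others 17.8 to 18.1). Ang II replicate 1 was low for Napb (344 CPM, the others 380.2 to 387). Ang II replicate 2 was high for Stx2, a syntaxin gene of epithelia (15.1 CPM, the others 11.5 to 11.9). This check was not run on the 3 saline libraries.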

How the results depend on the processing

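No member was called under any of the 13 alternatives or the 3 limma-voom options added after seeing the data, while the count over all genes was 35 with DESeq2, 142 with limma-voom, 98 without the filter and 56 with the replicate block. Leaving out 1 library gave 0 to 117 genes, the highest without saline replicate 3. With limma-voom it became 114 with robust moderation, 10 with REML weights and 8 with both. Members with an unadjusted p under 0.05 numbered 11 with limma-voom (15.7%, all genes 15.4%), 4 without the filter (5.48%, all genes 5.41%) and 9 with the replicate block (12.9%, all genes 7.67%), and 1 to 7 when 1 library was left out. With limma-voom they numbered 12 with robust moderation (all genes 15.6%), 4 with REML weights (6.96%) and 4 with both (7.04%). Members whose groups did not overlap numbered 6 to 15 when 1 library was left out, while the share of all genes ran from 8.26% to 16.9%. The 6 were without Ang II replicate 2 (all genes 8.26%) and the 15 without Ang II replicate 4 (all genes 13.5%). The cause of these changes was not tested. Fits that leave out 1 library also hold fewer libraries. Same-numbered libraries did not deviate together over all tested genes (correlations -0.07, -0.02 and 0.05). Such a correlation would miss a pairing that affected few genes. The labels state no pairing, so the replicate block rests on the numbers alone. Ang II replicate 4 has no saline library of its number, so in that fit it adds nothing to the difference between groups. The replicate block and the setting without Ang II replicate 4 are therefore not separate checks of the fold changes.

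Of 31 named genes, 22 kept their sign under every alternative, and 26 of 403 values changed it. The other 9 genes, when 1 library was left out, had these log2 fold changes. Syt1 ran from -0.0243 (without Ang II replicate 4) to 0.0258 (without Ang II replicate 3), and was at 0.00119 with DESeq2, 0.0199 with limma-voom, 0.00245 with RLE scaling, 0.0444 with library size scaling, 0.00442 with no filter. Cplx4 ran from -0.0842 (without saline replicate 2) to 0.0354 (without Ang II replicate 4), and was at 0.0222 with library size scaling, 0.0339 with the replicate block. Cplx3 ran from -0.17 (without saline replicate 2) to 0.113 (without saline replicate 3), and was at 0.00199 with library size scaling. Syn1 ran from -0.112 (without saline replicate 2) to 0.032 (without saline replicate 3), and was at 0.00403 with library size scaling. Unc13a ran from -0.215 (without saline replicate 3) to 0.00421 (without Ang II replicate 1). Cplx2 ran from -0.132 (without Ang II replicate 4) to 0.0109 (without saline replicate 3). Stx19 ran from -0.498 (without Ang II replicate 2) to 0.0968 (without saline replicate 2), and was at 0.178 with limma-voom. Syt12 ran from -0.204 (without saline replicate 2) to 0.297 (without saline replicate 3). Rab3b ran from -0.31 (without saline replicate 2) to 0.0441 (without saline replicate 1). Depth limits Stx11, Syt8 and Vamp9, which had too few counts to test.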
